A study of Mus musculus with 32 samples.

Results

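The chemokines *Cxcl9* and *Cxcl10* with their receptor *Cxcr3*, and the inflammatory CC chemokines *Ccl2*, *Ccl5*, *Ccl7*, *Ccl8* and *Ccl12* with the receptor *Ccr2*, were followed in primary tumors and lungs of mice with or without host *Clic4*. These 9 genes were taken as a list by their symbols from the 29511 genes of the count table, and each symbol was found there and in the FPKM table. RNA was sequenced from 32 tissues of female FVB/N mice that were *Clic4* wildtype (WT) or carried a constitutive *Clic4* knockout (KO), both born to heterozygous parents and used as virgin animals of 6 to 8 weeks. Orthografts of 6DT1 cells, a mouse mammary tumor line from an MMTV-Myc animal of the same strain, were placed in the fourth mammary fat pad. There were 6 primary tumors from KO hosts and 6 from WT hosts at 14 days, 6 KO and 6 WT lungs from tumor-bearing mice at the same time, and 4 KO and 4 WT lungs taken at baseline as controls. The 6DT1 cells carried *Clic4* in both kinds of host, so that KO names the host and not the tumor cells, and the KO allele lacks only the region around exon 2, so that reads from the rest of the gene still counted. Control and 14-day lungs came from different animals, and no label says whether a lung and a tumor came from the same mouse.

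Chemokines are small secreted proteins that draw leukocytes along a gradient. CXCL9 and CXCL10 are induced by interferon gamma and attract activated T cells and NK cells that carry CXCR3, while the monocyte chemoattractant proteins of the CC family attract monocytes, in part through CCR2. In tumors and lungs such ligands can be made by tumor cells, fibroblasts, endothelium and macrophages, whereas both receptors are carried mainly by leukocytes.

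*Cxcl9* (chr5:92321347-92328079, minus strand, GRCm38) and *Cxcl10* (chr5:92346638-92348889, minus strand) are neighbours that together span 27.5 kb. *Ccl2* (chr11:82035571-82037453), *Ccl7* (chr11:82045712-82047525), *Ccl12* (chr11:82101845-82103400) and *Ccl8* (chr11:82115185-82116799) lie in this order on the plus strand, within 81.2 kb. *Ccl5* (chr11:83525778-83530518, minus strand) lies apart from them on the same chromosome. *Ccr2* is at chr9:124101950-124113557 on the plus strand and *Cxcr3* at chrX:101731535-101734269 on the minus strand, and all 9 are annotated as protein coding in GENCODE M21. *Cxcl10* lies inside *Art3* (chr5:92331827-92414628), which is on the opposite strand. *Art3* was at 3.63 to 12.6 CPM (gene counts scaled by library size) in tumors from KO hosts and 1.71 to 6.97 in tumors from WT hosts, and was not called (log2 fold change 0.67, edgeR adjusted p = 0.353). *Ccl2* overlaps *Gm17268* on the opposite strand. The libraries were stranded, but whether the counting used the strand is not given in the sources used here.

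Promoter entries of RefSeq (GRCm38.p6) were found for 6 of the 9 genes. The 250 bases before the start site were searched on both strands for the GAS motif TTCNNNGAA, for the ISRE core GAAANNGAA and for the NF-kappaB consensus, which are sites read by factors activated through interferon receptors, for the first 2, and by NF-kappaB. The windows of *Cxcl9* (chr5:92328080-92328329, minus strand) and *Cxcl10* (chr5:92348890-92349139, minus strand) are shown because these ligands differed most between host genotypes in tumors, and that of *Ccl8* (chr11:82114935-82115184, plus strand) because it had the highest level per transcript length of the 9 genes there. They are written 5' to 3' with matches in capitals.
*Cxcl9*: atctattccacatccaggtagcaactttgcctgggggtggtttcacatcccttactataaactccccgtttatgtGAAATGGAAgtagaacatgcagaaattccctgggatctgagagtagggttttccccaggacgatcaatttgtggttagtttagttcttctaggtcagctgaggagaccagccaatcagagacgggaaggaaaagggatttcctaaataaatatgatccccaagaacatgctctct
*Cxcl10*: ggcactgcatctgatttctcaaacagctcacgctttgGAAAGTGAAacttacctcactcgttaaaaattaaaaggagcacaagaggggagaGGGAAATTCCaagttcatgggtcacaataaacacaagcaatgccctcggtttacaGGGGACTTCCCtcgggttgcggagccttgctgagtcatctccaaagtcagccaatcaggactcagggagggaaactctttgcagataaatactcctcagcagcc
*Ccl8*: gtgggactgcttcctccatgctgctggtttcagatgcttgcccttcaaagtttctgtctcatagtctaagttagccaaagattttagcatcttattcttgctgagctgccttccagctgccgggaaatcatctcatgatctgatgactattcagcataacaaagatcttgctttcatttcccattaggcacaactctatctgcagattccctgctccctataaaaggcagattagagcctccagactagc
The *Cxcl9* window held an ISRE core from -175 to -167. The *Cxcl10* window held an ISRE core from -213 to -205 and NF-kappaB matches from -159 to -150 and, as overlapping matches, from -104 to -94. The window of *Ccr2* held an ISRE core on its other strand, from -86 to -78, and those of *Ccl8*, *Ccl12* and *Cxcr3* held none of the 3 motifs. Over all 32851 entries of the table, 7.13% of the windows held the ISRE core, 7.02% the GAS motif and 7.25% the NF-kappaB consensus, so a match is common and is given as a description only.

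Between 4446323 and 8318711 counts were assigned to genes per sample. *Clic4* was at 206 to 255 CPM in control KO lungs against 609 to 676 in control WT lungs, and at 222 to 280 CPM in 14-day KO lungs against 588 to 867 in 14-day WT lungs, so host genotype and label matched in every lung. In tumors it was at 248 to 280 CPM in KO hosts against 296 to 325 CPM in WT hosts, without overlap (log2 fold change -0.21, SE 0.05, edgeR adjusted p = 0.0343). The 8 lung epithelial markers summed to 15300 to 17700 CPM in lungs and 0.446 to 4.19 CPM in tumors, and the 7 mammary epithelial markers to 500.0 to 702 CPM in tumors and 435 to 541 in lungs. Tumor 2 from a WT host stood apart in lymphocyte genes. Its 6 B cell markers summed to 65.1 CPM, against 1.71 to 6.64 in the other WT tumors, and its 10 T cell markers to 73.8 CPM, against 22.2 to 37.4. Tumor values are therefore also given without this sample where they rest on it.

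Whether the host's *Clic4* made a difference to these genes in the primary tumor was asked by comparing tumors of KO and WT hosts at 14 days. *Cxcl9* and *Cxcl10* rose most in tumors from KO hosts, by 9.72-fold and 4.93-fold, and the monocyte chemoattractants *Ccl7* and *Ccl2* rose by 1.86-fold and 1.71-fold. Of the 9 genes, 4 were called at an adjusted p under 0.05, all of them higher, while 2.02% of the 13830 genes tested were called higher. At an adjusted p under 0.25, 7 of the 9 were called, beside 10.5% of all genes. All 9 fitted values were above 0, with a median of 0.90 on the log2 scale, and all 9 had an unadjusted p under 0.05, as did 2146 of the genes tested, whose median was -0.01. The 4 called genes were the only ones of the 9 in which no KO tumor overlapped a WT tumor, but the share of all genes without overlap was not counted. The genes share their tumors, and in tissue RNA more cells of a type and more RNA per cell cannot be told apart.

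*Cxcl9*, a ligand of CXCR3, was at 78.5, 79.6, 49.5, 93.9, 169 and 155 CPM in the 6 tumors from KO hosts and at 31.3, 6.75, 6.68, 3.17, 5.64 and 9.80 CPM in those from WT hosts. Every tumor from a KO host was above every tumor from a WT host, and WT tumor 1 was far above the other WT tumors. For *Cxcl9* the log2 fold change was 3.28 (SE 0.44, edgeR adjusted p = 0.000541). It was 4.03 (adjusted p = 5.36e-05) without WT tumor 1, and between 3.09 and 3.43 when any other tumor was left out.

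*Cxcl10*, the second ligand of CXCR3, was at 16.2, 25.8, 10.0, 16.8, 21.2 and 19.4 CPM in tumors from KO hosts and at 4.72, 3.97, 5.43, 2.20, 3.13 and 2.61 CPM in those from WT hosts. The groups did not overlap, and the WT tumor that stood out in *Cxcl9* did not do so here. For *Cxcl10* the log2 fold change was 2.30 (SE 0.24, edgeR adjusted p = 9.44e-05), the smallest p of the 9 genes. Within a tumor, the log2 ratio of *Cxcl9* to *Cxcl10* was 2.38 ± 0.52 (SD, n = 6) in KO hosts and 1.01 ± 0.86 (SD, n = 6) in WT hosts, taken from CPM + 1. The groups overlapped in this ratio, and the difference of 1.38 had a p of 0.0173 (two-sided exact permutation test, 0.026 when adjusted over the 3 ratios tested). The log2 ratio of *Cxcl10* to *Ccl2* was -2.29 ± 0.58 (SD, n = 6) in KO hosts and -3.57 ± 0.54 (SD, n = 6) in WT hosts, with overlap and a difference of 1.28 (exact permutation p = 0.00649, adjusted 0.0195).

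*Cxcr3*, the receptor of both ligands, had few counts and was at 2.90 to 5.46 CPM (median 3.86) in tumors from KO hosts and 1.96 to 4.56 (median 2.39) in tumors from WT hosts. The highest WT value was that of tumor 2, whose lymphocyte markers were high, and it lay above 5 of the 6 KO tumors. The log2 fold change was 0.55 (SE 0.24, edgeR adjusted p = 0.294), and 0.76 (adjusted p = 0.120) without that tumor, so *Cxcr3* was called in neither case.

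*Ccl2* (MCP-1), a ligand of CCR2, was at 84.4, 75.0, 107, 78.1, 94.8 and 106 CPM in tumors from KO hosts and at 55.0, 43.5, 51.1, 62.0, 45.2 and 63.6 CPM in those from WT hosts. The groups did not overlap. *Ccl2* rose with a log2 fold change of 0.78 (SE 0.11, edgeR adjusted p = 0.00123). *Ccl7* (MCP-3), another ligand of CCR2, was at 26.3 to 43.5 CPM (median 35.3) in tumors from KO hosts and 16.3 to 23.1 (median 18.9) in tumors from WT hosts. These groups were also apart, with a log2 fold change of 0.89 (SE 0.12, edgeR adjusted p = 0.000541). Both remained called in every fit that left out 1 tumor, with log2 fold changes of 0.73 to 0.84 for *Ccl2* and 0.83 to 0.97 for *Ccl7*.

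*Ccl8* (MCP-2) was at 258, 156, 228, 155, 233 and 169 CPM in tumors from KO hosts and at 107, 105, 59.9, 55.6, 102 and 187 CPM in those from WT hosts. WT tumor 6 lay above 3 of the 6 KO tumors, and the other WT tumors lay below all of them. The log2 fold change of 0.96 (SE 0.25) missed the limit in edgeR at an adjusted p of 0.0521. It was called with DESeq2 (adjusted p = 0.0329), and by edgeR without the filter on low counts (adjusted p = 0.0404), with at least 10 counts in every sample (adjusted p = 0.0446), in a fit of all 32 samples (adjusted p = 0.00409) and without WT tumor 6 (log2 fold change 1.22, edgeR adjusted p = 0.00293). *Ccl12* (MCP-5) was at 11.4 to 23.8 CPM (median 15.6) in tumors from KO hosts and 6.97 to 16.9 (median 11.7) in tumors from WT hosts, with overlap. Its log2 fold change of 0.47 (SE 0.21, edgeR adjusted p = 0.287) was not called, nor was it without WT tumor 2 (0.60, adjusted p = 0.188). The log2 ratio of *Ccl2* to *Ccl12* in CPM was 2.43 ± 0.46 (SD, n = 6) in KO hosts and 2.11 ± 0.56 (SD, n = 6) in WT hosts, a difference of 0.32 (two-sided exact permutation test, p = 0.305, adjusted 0.305).

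*Ccl5* (RANTES), a chemoattractant of T cells and monocytes, was at 5.23, 4.66, 2.68, 4.24, 8.99 and 5.87 CPM in tumors from KO hosts and at 2.97, 2.58, 2.30, 0.488, 3.44 and 1.09 CPM in those from WT hosts. The lowest KO tumor was the only one inside the range of the WT tumors. For *Ccl5* the log2 fold change of 1.27 (SE 0.35, edgeR adjusted p = 0.0767) was not called, but DESeq2 called it (adjusted p = 0.0297), as did edgeR without KO tumor 3 (adjusted p = 0.0486). *Ccr2*, the receptor of *Ccl2*, *Ccl7* and *Ccl12* on monocytes, was at 69.2 to 109 CPM (median 77.9) in tumors from KO hosts and 23.4 to 84.7 (median 50.3) in tumors from WT hosts. The 2 highest WT tumors lay within the KO range. The log2 fold change of *Ccr2*, 0.58 (SE 0.23, edgeR adjusted p = 0.237), was not called. Without WT tumor 2 it was 0.71 (adjusted p = 0.152).

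**Figure D1:**
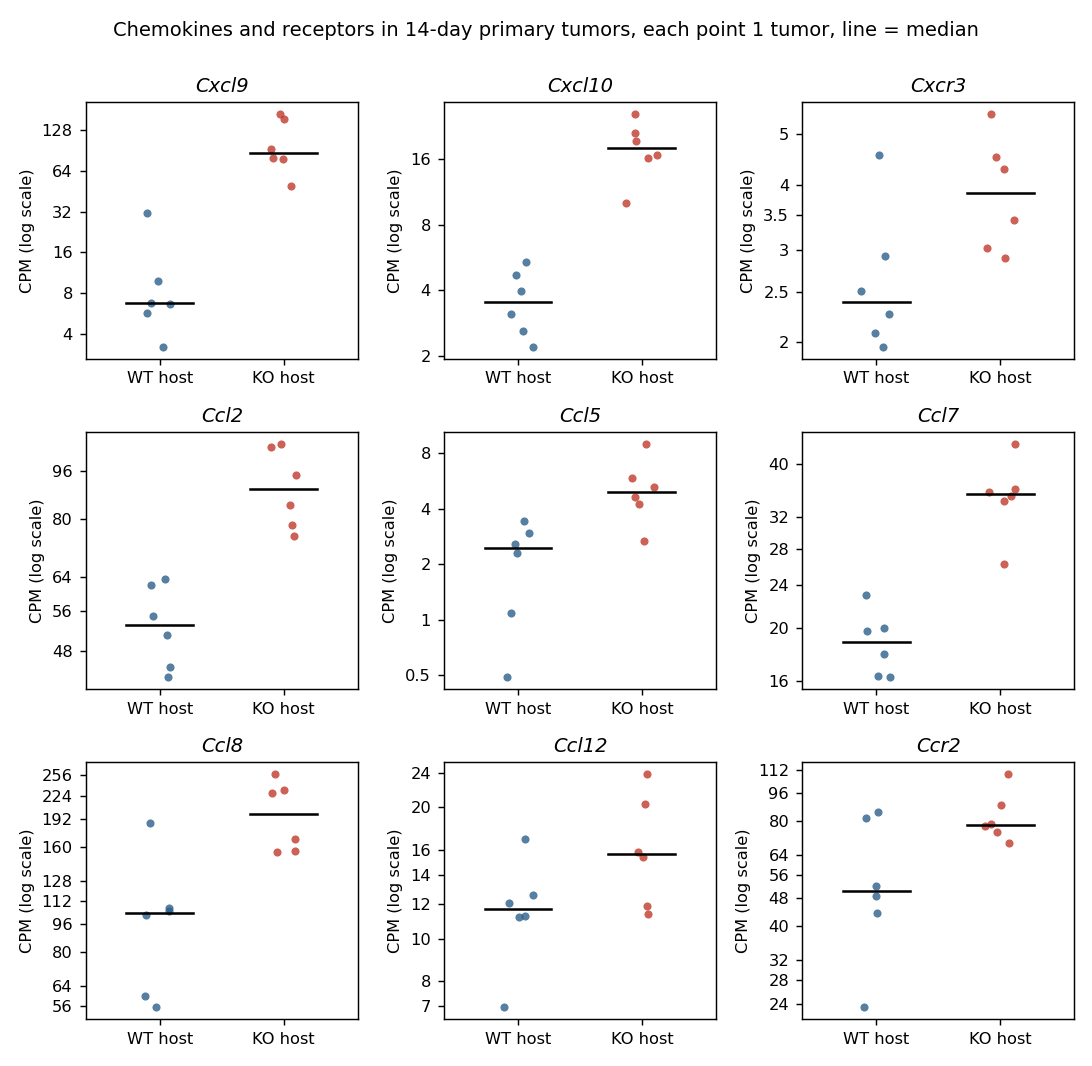
Levels of the 9 genes in 14-day primary tumors, in CPM on a log axis with its own range in each panel. Each point is 1 tumor (6 from WT hosts in blue, 6 from KO hosts in red) and the line is the median. The points of WT and KO hosts do not overlap for *Cxcl9*, *Cxcl10*, *Ccl2* and *Ccl7*.

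Levels were compared between genes in FPKM, which allows for transcript length. *Ccl8* led in both groups of tumors, at 616 ± 134 FPKM (SD, n = 6) in KO hosts and 325 ± 145 FPKM (SD, n = 6) in WT hosts, and *Ccl2* was second at 140 ± 22.7 and 84.1 ± 10.2 FPKM. The ranges of these 2 genes did not overlap each other or that of the gene below them. In tumors from WT hosts there followed *Ccl12* at 34.8 FPKM, *Ccl7* at 31.0, *Ccr2* at 17.4, *Ccl5* at 6.12, *Cxcl9* at 5.09 (with a median of 3.24, as WT tumor 1 was at 14.7), *Cxcl10* at 3.81 and *Cxcr3* below them, and each of these means had a range overlapping that of its neighbour. In tumors from KO hosts the order was *Ccl7* at 55.9 FPKM, *Ccl12* at 47.3, *Cxcl9* at 39.0, *Ccr2* at 25.2, *Cxcl10* at 22.9, *Ccl5* at 14.8 and *Cxcr3* at 2.46, again with overlap between neighbours except for the last 2. The summed FPKM of *Ccl2*, *Ccl7*, *Ccl8* and *Ccl12* was 670 to 1001 (median 878) in tumors from KO hosts and 312 to 720 (median 482) in tumors from WT hosts. *Ccl8* made up a median of 69.7% of that sum in KO hosts and 68.1% in WT hosts. For *Cxcl9* and *Cxcl10* the FPKM per CPM differed by up to 3.02 and 2.03 times between tumors, and by less for the other 7 genes, so that differences of these ligands between groups were taken from counts.

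Other genes of the same pathways were counted in the same tumors. Of 30 other chemokine ligands, 14 passed the filter on low counts and 1 was called, *Cxcl11*, the third ligand of CXCR3. *Cxcl11* was at 2.90 to 11.7 CPM (median 8.45) in tumors from KO hosts and 0.488 to 3.15 (median 1.83) in tumors from WT hosts, with a log2 fold change of 2.22 (SE 0.38, edgeR adjusted p = 0.00361). It is annotated as a polymorphic pseudogene in the mouse, because some strains carry a disrupted copy. Of 21 other chemokine receptors, 13 were tested and 2 were called, both higher in KO hosts. *Cxcr6*, the receptor of *Cxcl16* on T cells and NK cells, rose by 0.83 on the log2 scale (SE 0.13, edgeR adjusted p = 0.00251). The median log2 fold change was 0.60 over the other ligands tested and 0.35 over the other receptors.

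Of 12 genes of interferon gamma signaling, 11 were tested and 7 were called, all higher in tumors from KO hosts, with a median log2 fold change of 0.72. *Irf1*, a transcription factor induced by interferon gamma, rose by 1.16 (SE 0.10, edgeR adjusted p = 4.33e-05), and its values of 108 to 154 CPM in KO hosts lay above the 54.3 to 71.8 CPM of WT hosts. *Jak2*, a kinase of the interferon gamma receptor, rose by 0.50 (SE 0.08, edgeR adjusted p = 0.00163), and *Socs1*, an inhibitor of that signal, rose from a median of 2.36 CPM to 6.86 CPM (edgeR adjusted p = 0.00188). *Ifng* itself did not pass the filter. It was at 0.446 to 2.73 CPM (median 0.822) in tumors from KO hosts and 0 to 0.524 CPM (median 0.0992) in tumors from WT hosts. Of 15 genes of TNF and NF-kappaB signaling, all were tested and 1 was called, *Nfkb2*, which encodes an NF-kappaB subunit and rose by 0.43 (SE 0.06, edgeR adjusted p = 0.000496). The median over that list was 0.31, and all 15 fitted values were above 0.

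**Figure D2:**
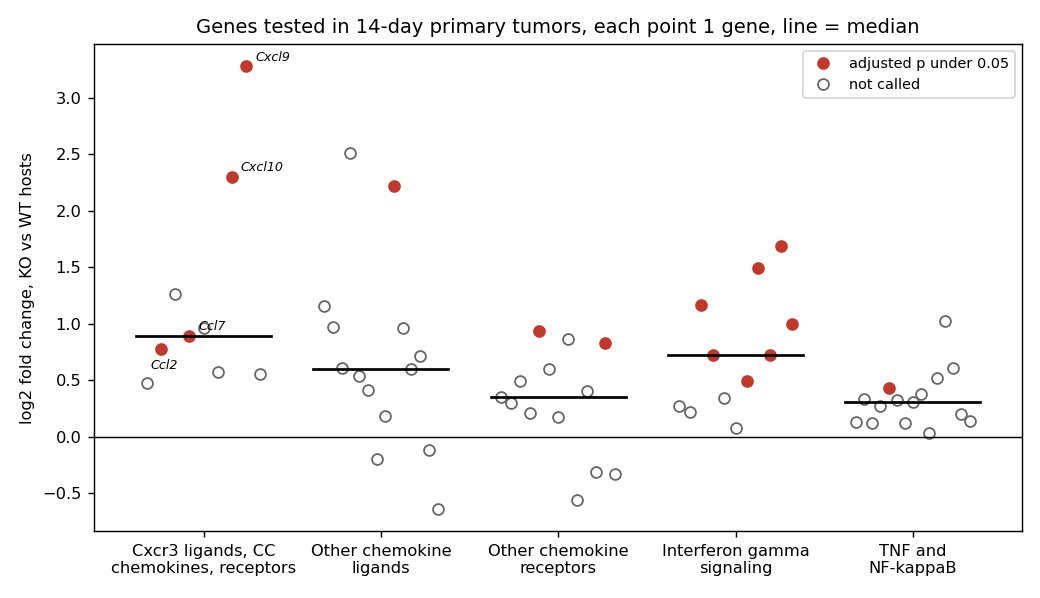
Log2 fold change between tumors of KO and WT hosts for each tested gene of 5 lists, namely the 9 genes described here, other chemokine ligands, other chemokine receptors, interferon gamma signaling, and TNF and NF-kappaB signaling. Filled points are genes called at an adjusted p under 0.05 and the line is the median of a list. The interferon gamma list has 7 filled points of 11, and no filled point lies below 0.

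Markers of leukocytes and of tissue cells were counted in the same tumors. Of 10 T cell markers, 9 were tested and 2 were called, *Cd3g* (log2 fold change 1.31) and *Cd3d* (1.46), and their summed level was 46.6 to 82.1 CPM in KO hosts and 22.2 to 73.8 in WT hosts. Without WT tumor 2, the T cell sum of every WT tumor was below that of every KO tumor. Of 8 NK cell markers, 6 were tested and 2 were called, *Nkg7* (1.35) and *Il2rb* (0.70), with a sum of 38.2 to 56.3 CPM in KO hosts and 21.7 to 41.8 in WT hosts. All 12 monocyte and macrophage markers were tested and 1 was called, *C1qb* (0.73), with a sum of 1350 to 2260 CPM in KO hosts and 795 to 1720 in WT hosts. Of 8 dendritic cell markers, 7 were tested and 1 was called, *Itgax* (1.00), with a sum of 64.7 to 84.1 CPM in KO hosts and 40.2 to 64.5 in WT hosts. *Itgax* alone was at 27.9 to 52.0 CPM in KO hosts and 15.1 to 28.3 in WT hosts. Only 4 of the 7 fitted values were above 0, with a median of 0.15, so the list did not rise as a whole. None of the markers of neutrophils (4 of 8), B cells (1 of 6), endothelium (6 of 7), fibroblasts (7) or mammary epithelium (7) that could be tested was called. The B cell sum was 6.25 to 14.1 CPM in KO hosts and 1.71 to 6.64 in WT hosts without WT tumor 2. The neutrophil sum was 18.0 to 46.5 CPM in KO hosts and 17.8 to 26.6 in WT hosts, with *Ly6g* at 0 in every tumor, and the fibroblast sum was 4360 to 10200 CPM in KO hosts and 4110 to 8610 in WT hosts. The endothelial sum was 105 to 200 CPM in KO hosts and 127 to 157 in WT hosts. The part of these cells in the chemokine differences was not tested.

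Lungs were compared to ask how a distant tumor and the host genotype changed the same genes before metastasis. In all 20 lungs the monocyte chemoattractants were near the limit of detection. *Cxcl10*, *Ccl2*, *Ccl7*, *Ccl8* and *Ccl12* did not pass the filter on low counts, and *Cxcl9*, *Cxcr3*, *Ccl5* and *Ccr2* were tested. By FPKM, *Ccl5* and *Ccr2* led in all 4 lung groups, with means of 18.8 to 26.8 FPKM for *Ccl5* and 9.84 to 13.3 for *Ccr2*. The other 7 genes had means of 0.450 to 5.25 FPKM, and among these 7 each range overlapped that of its neighbour in every lung group. The FPKM per CPM of *Cxcl9* and *Cxcl10* differed by up to 8.51 and 6.59 times between lungs, so that their places in this order are uncertain.

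Between 14-day and control WT lungs, none of the 4 tested genes was called at an adjusted p under 0.05 or under 0.25, beside 0.0% and 2.33% of the 16029 genes tested, and 1 of them had an unadjusted p under 0.05, as did 1884 of all genes. *Cxcl9* was at 0.845, 0.538, 0.368 and 0.952 CPM in the 4 control WT lungs and at 2.44, 3.45, 1.37, 0.182, 1.36 and 2.71 CPM in the 6 WT lungs at 14 days. In this comparison 5 of the 6 lungs from tumor-bearing mice were above every control and the sixth was below them all. The log2 fold change of 1.44 (SE 0.59) had an unadjusted p of 0.0241 in edgeR and an adjusted p of 0.358. *Ccr2* was at 25.2 to 36.8 CPM in control WT lungs and 27.8 to 60.3 (median 36.8) at 14 days, a log2 fold change of 0.32 (SE 0.21, edgeR adjusted p = 0.561). The log2 fold change was 0.26 (SE 0.32) for *Cxcr3* and -0.25 (SE 0.34) for *Ccl5*, with edgeR adjusted p-values of 0.783 and 0.809.

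Between 14-day and control KO lungs, again none of the 4 genes was called at either limit, beside 0.0374% and 1.05% of all genes. *Ccr2* was among the 1385 genes with an unadjusted p under 0.05, with an edgeR p of 0.0454 (adjusted 0.562) and a log2 fold change of 0.44 (SE 0.21). It was at 26.8, 44.4, 29.7 and 20.4 CPM in the 4 control KO lungs and 30.2 to 55.7 (median 39.0) at 14 days, with overlap. *Cxcl9* was at 1.48, 2.10, 1.44 and 0.561 CPM in control KO lungs and at 3.29, 2.02, 3.24, 0.355, 1.17 and 0.812 CPM at 14 days, a log2 fold change of 0.37 (SE 0.54, edgeR adjusted p = 0.887). *Cxcr3* differed by 0.58 (SE 0.35, edgeR adjusted p = 0.673) and *Ccl5* by -0.03 (SE 0.37, edgeR adjusted p = 0.989).

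KO and WT lungs were also compared directly. At 14 days, 0 of the 4 genes were called in edgeR at either limit or had an unadjusted p under 0.05, beside 0.0936% of all genes at 0.05 and 0.861% at 0.25, and DESeq2 called 0 of them. Log2 fold changes were -0.09 for *Cxcl9* (SE 0.46), -0.12 for *Cxcr3* (SE 0.28), -0.24 for *Ccl5* (SE 0.32) and 0.07 for *Ccr2* (SE 0.18). In control lungs the same held, beside 0.0187% and 0.973% of all genes, with values of 0.98 for *Cxcl9* (SE 0.68), -0.45 for *Cxcr3* (SE 0.37), -0.46 for *Ccl5* (SE 0.38) and -0.06 for *Ccr2* (SE 0.23). The interaction, the effect of the tumor in KO lungs minus that in WT lungs, was -1.07 for *Cxcl9* (SE 0.82, edgeR adjusted p = 0.752) and 0.12 to 0.33 for the other 3 genes. None of them was called, at a background of 0.00624% of genes at 0.05 and 0.0499% at 0.25, and none had an unadjusted p under 0.05. *Cxcl9* had 1 to 21 counts in a lung, against 13 to 1056 in a tumor.

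For the 5 genes below the filter, mean log2(CPM + 1) was compared by two-sided exact permutation tests, 20 in all and unadjusted. Among them 1 difference had a p under 0.05, that of *Cxcl10* between 14-day and control WT lungs. *Cxcl10* was at 0.724, 0.717, 0.368 and 0.634 CPM in the 4 control WT lungs and at 0.974, 1.34, 1.37, 0.729, 1.71 and 1.02 CPM at 14 days, so that in CPM every 14-day lung was above every control. In FPKM the groups overlapped, at 0.79 to 2.31 (mean 1.49) in controls and 0.85 to 2.18 (mean 1.46) at 14 days. The difference of 0.43 (exact permutation p = 0.00952) rested on 42 counts in 6 lungs against 16 in 4 lungs, and edgeR without the filter gave an adjusted p of 0.664. In KO lungs *Cxcl10* was at 0.561 to 1.33 CPM in controls and at 2.63, 3.12, 2.16, 0.355, 0.391 and 0.487 CPM at 14 days, where 3 lungs were above every control and 3 below (difference 0.20, exact permutation p = 0.619). *Ccl12* was at 0.162 to 4.95 CPM in 14-day KO lungs and 0 to 0.798 in control KO lungs (difference 0.69, exact permutation p = 0.124). *Ccl2*, which was at 0 to 2.19 CPM over all lungs, was higher at 14 days by 0.47 in WT lungs (exact permutation p = 0.0571) and by 0.52 in KO lungs (exact permutation p = 0.181). *Ccl7* was at 0 to 1.83 CPM and *Ccl8* at 0 to 2.20 CPM over all lungs, and their 8 exact permutation p-values lay between 0.305 and 0.743.

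**Figure D3:**
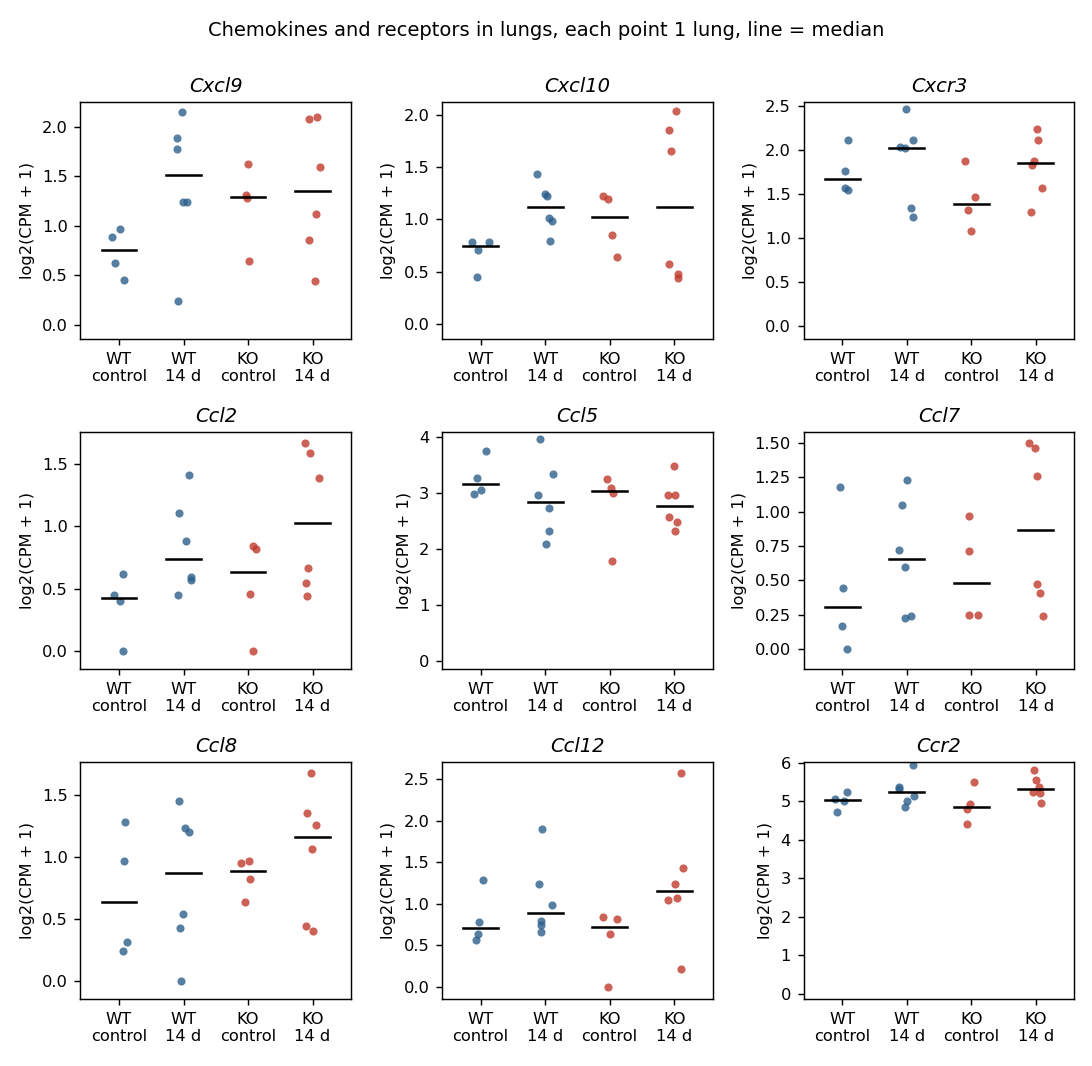
Levels of the 9 genes in lungs, as log2(CPM + 1) with its own range in each panel. Each point is 1 lung (4 in each control group, 6 in each 14-day group, WT in blue and KO in red) and the line is the median. In the comparisons made, CPM overlap in every panel except for control and 14-day WT lungs in *Cxcl10*.

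Among the pathway lists, none of the genes tested was called in lungs at an adjusted p under 0.05. Under 0.25, 2 of 16 other chemokine receptors tested were called in WT lungs and 1 of 16 in KO lungs (14-day against control), beside 2.33% and 1.05% of all genes. Between 14-day KO and WT lungs 1 of 20 other chemokine ligands was called, beside 0.861% of all genes. Between control KO and WT lungs 1 of 10 genes of interferon gamma signaling was called lower, beside 0.973% of all genes called in either direction. *Ifng* had 0 counts in all 8 control lungs and 0 to 4 counts in a 14-day lung. Neutrophil markers, whose sum was 44.3 to 83.3 CPM in control and 87.3 to 323 CPM in 14-day WT lungs, and 53.1 to 94.0 CPM in control and 36.3 to 360 CPM in 14-day KO lungs, were called 0 times at 0.05, and 4 in WT and 2 in KO lungs of the 6 tested were higher at 14 days at an adjusted p under 0.25. The T cell sum was 66.4 to 108 CPM in control and 57.6 to 111 in 14-day WT lungs, and 58.9 to 90.8 CPM in control and 55.2 to 113 in 14-day KO lungs. Monocyte and macrophage markers summed to 1810 to 2970 CPM over all lungs, and their part in the lung values was not tested.

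The host genotype effect was set against tissue in a fit of all 32 samples, as the KO minus WT difference in tumors minus that in 14-day lungs. Of the 9 genes, *Cxcl9* was called, by 3.36 on the log2 scale (SE 0.78, edgeR adjusted p = 0.0242), beside 1.06% of 16825 genes. The fitted difference between hosts for *Cxcl9* was 3.28 in tumors and -0.09 in 14-day lungs. At an adjusted p under 0.25, 3 of the 9 were called, beside 5.83% of all genes, and the 3 included *Cxcl10*, which was below the filter in lungs. *Ccl5*, *Cxcr3* and *Ccr2*, which like *Cxcl9* had passed the filter in lungs, had values of 1.49 (SE 0.51, edgeR adjusted p = 0.180), 0.66 (adjusted p = 0.512) and 0.50 (adjusted p = 0.545). The call of *Cxcl9* was lost without any of the 14-day WT lungs 1, 2 or 6 (edgeR adjusted p = 0.0585, 0.0763 and 0.0654), with a log2 value of 3.14 to 3.28 in these fits. The other 5 genes had not passed the filter in lungs and entered this fit through the tumors, so the lung side of their difference rests on few counts. Of these, *Cxcl10* had 2 to 17 counts in a 14-day lung and a value of 1.97 (SE 0.51, edgeR adjusted p = 0.0532). It was called with DESeq2 and with the replicate number as a block (adjusted p = 0.0144 and 0.0355). RLE scaling and edgeR without the filter did not call it (adjusted p = 0.0549 and 0.0642). With so few lung counts, the values of *Cxcl10* are a description and do not decide whether its host effect differed between tissues. The remaining 4 had values between -0.05 and 0.55, with an SE of 0.50 to 0.78.

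WT tumors and WT lungs at 14 days were compared in the same fit, where 37.5% of all genes were called higher in tumors and 38.4% lower, so that a call by itself is common. *Cxcl10*, *Ccl2*, *Ccl7*, *Ccl8* and *Ccl12* had passed the filter of this fit only through the tumors, so their levels are given as a description. *Ccl8* was at 55.6 to 187 CPM in WT tumors and 0 to 1.73 CPM in WT lungs, and *Ccl2* at 43.5 to 63.6 CPM and 0.365 to 1.67 CPM. *Ccl7* was at 16.3 to 23.1 CPM in tumors and 0.171 to 1.34 in lungs, *Ccl12* at 6.97 to 16.9 and 0.575 to 2.73, and *Cxcl10* at 2.20 to 5.43 and 0.729 to 1.71. No tumor overlapped a lung in these 5 genes, and the share of all genes without such overlap was not counted. Of the 4 genes that also passed in lungs, *Cxcl9* was called higher in tumors, with a log2 difference of 2.49 (SE 0.51, edgeR adjusted p = 5.48e-05), and *Ccr2* with one of 0.52 (SE 0.22, edgeR adjusted p = 0.0311), both with overlap. The call of *Ccr2* was lost in 10 of 39 alternatives, among them DESeq2 (adjusted p = 0.0604), RLE scaling (0.0509), at least 10 counts in every sample (0.0792), and edgeR without WT tumor 1 or 2 (0.173 and 0.114) or without 14-day WT lung 1, 2 or 5 (0.0583 to 0.0767). *Ccl5* was called lower in tumors, with a log2 difference of -1.71 (SE 0.38, edgeR adjusted p = 0.000151), at 0.488 to 3.44 CPM in WT tumors against 3.28 to 14.7 CPM in 14-day WT lungs. *Cxcr3* was not called, with a log2 difference of -0.07 (SE 0.28, edgeR adjusted p = 0.836). The T cell sum was 22.2 to 73.8 CPM in the same tumors and 57.6 to 111 in the same lungs, and the monocyte and macrophage sum 795 to 1720 CPM against 2090 to 2430.

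**Figure D4:**
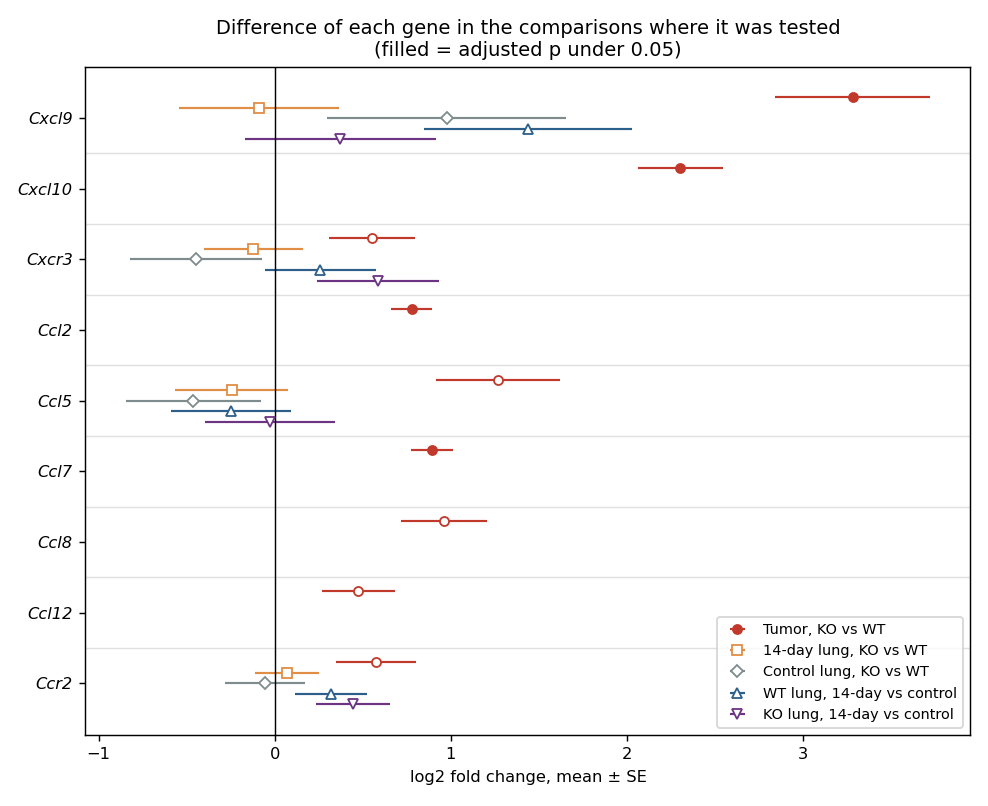
Log2 fold change (± SE) of the 9 genes in 5 comparisons of 2 groups, with a filled symbol where the adjusted p was under 0.05. Only *Cxcl9*, *Cxcl10*, *Ccl2* and *Ccl7* in tumors have filled symbols, and genes without lung symbols had too few counts there to be tested.

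The genes whose pattern over the 6 group means was most like each of the 9 were found among 16825 genes, as those with the smallest root mean square difference in centred log2(CPM + 1). *Gbp2b*, a guanylate-binding protein gene, was closest to *Cxcl9* (0.29, where *Cxcl9* ranged over 5.87), followed by *Il24* (0.45). *Ccl24* and *Irg1* were closest to *Cxcl10* (0.14 and 0.19, range 3.53). *Mup10* was closest to *Ccl8* (0.19, range 6.92). *Padi4* was among the 2 closest to *Ccl2* (0.29, range 6.14), and *Chl1* and *Mmp3* were closest to *Ccl7* (0.16 and 0.22, range 4.71). The T cell genes *Trbc2* and *Slamf6* were closest to *Ccl5* (0.09 and 0.11, range 1.71). *Aqp9* and *Rnf31* were closest to *Cxcr3*, *B3gnt3* and *Rasa4* to *Ccl12*, and *Ncf4* and *Mmp25* to *Ccr2*, at 0.04 to 0.15.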

How the data were processed

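RNA of 12 primary tumors and 20 lungs was prepared with a stranded mRNA kit and sequenced. According to the submitters' processing notes, reads were aligned with STAR and counted with RSEM on GRCm38 (mm10), and the annotation release and the use of strand are not given in the sources used here. The authors deposited expected counts per gene, which were whole numbers, and FPKM per gene, which is scaled for transcript length and depth. Groups were taken from the sample labels. WT and KO mice were littermates of heterozygous intercrosses, but the labels do not say which samples share a litter or a mouse, and p-values measure the spread between the samples of a group.

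Counts were fitted in edgeR 4.0.16 (R 4.3.3) with TMM scaling, edgeR's filter on low counts and the quasi-likelihood test, separately in tumors, in lungs and, for differences between tissues, in all 32 samples. Genes were called at a Benjamini-Hochberg adjusted p under 0.05 over all genes tested, and in lungs also under 0.25. CPM were computed with TMM library sizes over all 32 samples, and an SE is the size of a log2 fold change divided by the square root of its F statistic. Genes below the filter in lungs were compared as mean log2(CPM + 1) by exact permutation tests in scipy 1.17.1. Levels of different genes were compared in FPKM, without a test. Within-tumor ratios of genes, taken from CPM + 1, were compared between host genotypes by exact permutation tests. The scripts were tested on simulated data. Alternatives were DESeq2 1.42.0, RLE scaling, other filters, limma 3.58.1 on log2(FPKM + 1) and log2(FPKM + 0.1), a replicate block, and leaving out each sample in turn.

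The 9 genes and the lists were chosen with earlier results of these data known. From each pathway list, up to 4 called genes with the smallest p in tumors are named. Some genes that this rule or the search for like patterns gave are not reported here. Marker genes are named where a list had few calls, chosen after their values were seen. Positions are from GENCODE M21 and promoter sequences from RefSeq. Replicate numbers were not treated as pairs: no set of same-numbered samples had every correlation of deviations above 0.1, as these were -0.35 to 0.14 between tumors of KO and WT hosts and 0.0496 to 0.178 between tumors and 14-day lungs of KO hosts. In the latter, however, each of the 6 tumors correlated best with the lung of its own number, while in WT hosts 2 of 6 did. Chi-square tests on counts of replicates gave 2.55 to 16.5 per degree of freedom, so no library was counted as a repeat.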

Additional observations from a re-analysis of the deposited data

Results flagged for a closer look

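Of 54 groups of 4 to 6 samples examined for the 9 genes, 4 held a highest or lowest sample whose gap to the next, relative to the range of the group, passed the limit of Dixon's test at a level of 0.05, which chance passes in about 1 in 20 groups. *Cxcl9* in WT tumor 1 was at 31.3 CPM, while the other 5 WT tumors were at 3.17 to 9.80 CPM. *Cxcr3* in WT tumor 2, the tumor with high B cell and T cell markers, was at 4.56 CPM, with the other WT tumors at 1.96 to 2.93 CPM. *Ccl12* was at 2.73 CPM in 14-day WT lung 5, on 16 counts, and at 4.95 CPM in 14-day KO lung 2, on 27 counts.

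The host genotype effect on *Cxcl9* differed between tissues, by 3.36 on the log2 scale (edgeR adjusted p = 0.0242), being 3.28 in tumors and -0.09 in 14-day lungs.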

How the results depend on the processing

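In tumors the calls of *Cxcl9*, *Cxcl10*, *Ccl2* and *Ccl7* remained in every alternative in which they were tested. Over 8 settings 4 to 6 of the 9 genes were called, or 7 at an adjusted p limit of 0.25, where 10.5% of all genes were called. Replicate numbers are shared by groups. In KO hosts 6 of 6 tumors correlated best with the 14-day lung of their own number, against 2 of 6 in WT hosts. This is a hint from the data and not from the design. With a replicate block the count was again 4 in tumors and 0 in the lung comparisons. These fits hold only tumors or only lungs, so they do not bear on whether a tumor and a lung shared a mouse. In lungs none of the genes that could be tested was called in any setting or any fit that left out 1 sample, and the main fit tested 4 of the 9.

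For the difference of the host effect between tissues, 1 of the 9 genes was called, against 3 at a limit of 0.25, where 5.83% of all genes were called. The count was 2 with DESeq2, 2 with limma on log2(FPKM + 1) and 2 with a replicate block. In these *Cxcl10*, which had not passed the filter in lungs, was gained. The count was 0 of 1 tested with at least 10 counts in every sample. Leaving out 1 sample gave 0 to 2, with *Cxcl10* gained without KO lung 1 or 2, WT lung 4, KO tumor 3 or 4, or WT tumor 1 or 3, at log2 values of 1.99 to 2.30. Between WT tumors and WT lungs the stricter filter left only *Ccr2* to be tested, and it was not called, so the count was 0.

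Values near 0 changed sign. *Ccl5* in KO lungs (14-day against control) was 0.0301 and 0.0404 with limma on log2(FPKM + 1) and log2(FPKM + 0.1). *Ccl12* in the difference between tissues was 0.0837 with the replicate block, and 0.18 and 0.22 with limma. In fits without 1 sample, log2 values ran from -0.29 to 0.14 for *Ccl5* in KO lungs. Between 14-day KO and WT lungs they ran from -0.37 to 0.14 for *Cxcl9*, -0.26 to 0.0615 for *Cxcr3*, -0.43 to 0.10 for *Ccl5* and -0.0404 to 0.24 for *Ccr2*. *Ccr2* in control lungs ran from -0.29 to 0.0908, and the interaction from -0.0433 to 0.57 for *Ccl5* and -0.0202 to 0.36 for *Ccr2*. Between tissues, the host effect ran from -0.0278 to 0.54 for *Ccl2* and -0.47 to 0.61 for *Ccl12*, and *Cxcr3* in WT tumors against lungs from -0.28 to 0.12. For the low-count genes, tested with a pseudocount of 0.1 and without each sample as alternatives chosen after seeing the data, *Cxcl10* between 14-day KO and WT lungs was -0.0912 at that pseudocount. Without 1 sample, differences in mean log2(CPM + 1) were -0.11 to 0.21 for that gene, -0.0514 to 0.42 for *Ccl12* in the same comparison, -0.045 to 0.30 for *Ccl8* in WT lungs (14-day against control), and -0.0536 to 0.34 for *Ccl7* and -0.00945 to 0.34 for *Ccl8* between control KO and WT lungs. The cause was not tested. Counts of 0 to 28 a lung limit these values for all but *Ccl5* and *Ccr2*.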
